A study of Papio with 24 samples.

Results

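The genes described here encode laminin chains and nidogens, the glycoproteins that with type IV collagen build the basement membrane. All 10 symbols of the list were looked up in the platform annotation. Every probe carrying one of them as its only symbol was kept, whatever it showed. On that rule, the annotation used here gave 14 of the array's 48803 probes to 9 of the 10 genes (LAMA2, LAMA4, LAMA5, LAMB1, LAMB2, LAMB3, LAMC1, NID1 and NID2). No probe carried LAMA3 as its only symbol, so LAMA3 was not analysed here. In all, probes with a single symbol named 18852 genes.

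The study read RNA of cultured adipose-derived stem cells, the progenitors of fat cells, from 8 baboon fetuses on 24 single-colour Illumina bead arrays with human probes. Each fetus gave 1 array from omental fat, which lies inside the abdomen, 1 from subcutaneous abdominal fat and 1 from subcutaneous femoral fat of the thigh. In the control group, 4 mothers ate ad libitum, and in the restricted group 4 mothers received a diet cut by 30% for the whole of pregnancy. Gestation had reached 165 of the 184 days to term. Each diet group held 1 male fetus (control_9017 or restricted_9085, as labelled) and 3 female fetuses (control_9087, control_8011 and control_8009, or restricted_2820, restricted_9075 and restricted_9073). All groups share passage in culture: the cells were freed with collagenase, expanded in serum, frozen, thawed and regrown to confluence, and the RNA of 3 wells was pooled into 1 sample. An array therefore stands for 1 fetus and 1 depot, in cells grown in wells outside their tissue.

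A laminin is a cross-shaped trimer of an alpha, a beta and a gamma chain, and the alpha chain carries the globular domains that integrins and dystroglycan bind. Laminins assemble into a sheet at the cell surface, a separate sheet of type IV collagen forms beside it, and nidogens bridge the sheets by binding the laminin gamma 1 chain. Fat cells and their precursors lie within such a membrane in tissue. LAMA2 encodes the alpha 2 chain of merosin, the laminin of skeletal muscle fibres and Schwann cells, and its loss causes a congenital muscular dystrophy in people. LAMA4 encodes the alpha 4 chain of vessel walls and fat cells.

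Arrays detected between 13102 and 14994 probes, or 26.8% to 30.7%, at a detection p under 0.05. Levels below are log2 signals after background modelling and quantile normalisation, and the precision of each comparison is limited by how few arrays there were. Probe levels were not set against each other, since how well each human probe matches baboon RNA was not assessed. The progenitor and fibroblast markers were present on all arrays, with 7 to 9 of 10 detected, while THY1 was detected on none. Adipocyte markers were sparse, with 1 to 3 of 5 detected and PLIN1 on no array. On the abdominal array of fetus restricted_9073 the visceral gene NKX3-2 read 9.55, against 4.39 to 4.88 on the other abdominal arrays and 9.69 to 10.79 on the omental ones. HOXC8, which marked the subcutaneous arrays, read 9.93 there, within the 9.77 to 11.39 of the other abdominal arrays and above the 5.85 to 7.76 of the omental ones. On the femoral array of fetus restricted_9075 NKX3-2 read 7.13, against 4.39 to 5.10 on the other femoral arrays. The abdominal array of fetus control_8009 read 9.07 for the hindlimb gene PITX1, against 4.35 to 5.16 on the others of that depot. The arrays of fetus restricted_2820 had a mean correlation of 0.41 to 0.55 among themselves once each probe's mean over all arrays was taken off. In the other fetuses this ran from -0.14 to 0.46, so the ranges overlapped. Some results that rest on these arrays are given with and without them, and the others with all arrays only.

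Among the laminin and nidogen probes, 9 probes of 7 genes were detected on enough arrays to be tested. LAMA4 (1 of its 2 probes), both LAMB1 probes, LAMB2, LAMC1, NID1 and NID2 were detected on all 24 arrays. Both LAMA2 probes were detected on 23, the exception being the omental array of fetus restricted_2820. The other 5 probes were detected on no array: the single LAMA5 probe, all 3 LAMB3 probes and the second LAMA4 probe. LAMA5 encodes the alpha 5 chain of epithelia and vessels, and LAMB3 the beta 3 chain that anchors the epidermis. Whether these probes can bind the baboon transcripts was not tested, so LAMA5 and LAMB3 are described only as not detected.

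LAMA2 was lower in omental cells of every fetus than in the same fetus's subcutaneous cells of either site. On its brighter probe fetuses control_9017, control_9087, control_8011 and control_8009 read 5.23, 5.22, 4.80 and 5.50 in omental cells. Their abdominal cells read 8.86, 7.95, 8.08 and 9.41, and their femoral cells 8.91, 8.82, 9.12 and 9.46. No omental level of a control fetus came near a subcutaneous one. Fetuses restricted_9085, restricted_2820, restricted_9075 and restricted_9073 read 6.49, 4.40, 4.86 and 5.16 in omental cells. Their abdominal cells read 10.12, 9.04, 8.66 and 7.15, and their femoral cells 9.86, 7.26, 9.17 and 9.11. The abdominal array of restricted_9073 and the femoral array of restricted_2820 were the lowest of their depots, and both still lay above all 8 omental arrays. Fetus restricted_9085 had the highest level in each of the 3 depots.

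**Figure D1:**
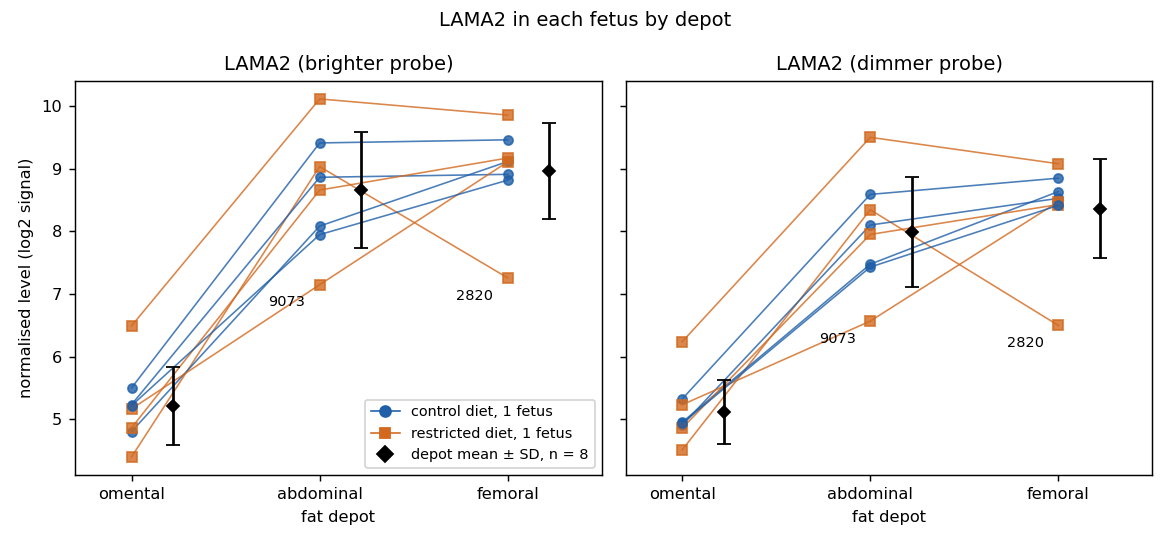
LAMA2 log2 levels (vertical axis) on each of its 2 probes in omental, abdominal and femoral cells, with a line joining the 3 depots of a fetus. Black diamonds and bars are depot means ± SD (n = 8); all lines rise from omental to abdominal cells, and the labelled arrays of restricted_9073 and restricted_2820 are the lowest of their depots.

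On the brighter probe the mean was 5.21 ± 0.62 in omental, 8.66 ± 0.93 in abdominal and 8.96 ± 0.76 (SD, n = 8 each) in femoral cells. The deposited signal, which has the background subtracted, had a median of 20.5 in omental, 404 in abdominal and 572 in femoral cells. The omental level is thus close to background, and its exact height depends on how background is treated.

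The omental minus abdominal difference was -3.45 ± 0.37 (log2, SE; adjusted p 9.31e-05, limma), or 10.9-fold less, with a 95% confidence interval of -4.23 to -2.67. Within fetuses it ran from -4.64 in restricted_2820 to -1.98 in restricted_9073 and was below 0 in 8 of 8. The omental minus femoral difference was -3.75 ± 0.32 (adjusted p 7.8e-07, limma), or 13.5-fold less, with an interval of -4.43 to -3.08. Within fetuses it ran from -4.31 in control_8011 and restricted_9075 to -2.86 in restricted_2820. Fewer cells of a type and less RNA per cell cannot be told apart in such bulk RNA.

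The dimmer LAMA2 probe gave the same order. Omental cells read 4.51, 4.94 and 6.24 (lowest, median and highest of 8), abdominal cells 6.57, 8.03 and 9.50, and femoral cells 6.50, 8.50 and 9.08. Its differences were -2.88 ± 0.33 from abdominal (7.35-fold less, adjusted p 1.56e-04, limma) and -3.25 ± 0.31 from femoral cells (9.49-fold less, adjusted p 2.29e-06, limma). Neither probe's omental values overlapped those of a subcutaneous depot.

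Without the abdominal array of fetus restricted_9073 the brighter probe's omental minus abdominal difference was -3.69 ± 0.32 (adjusted p 6.57e-06, limma), and without that of control_8009 it was -3.33 ± 0.38 (2.99e-04). Without the femoral array of restricted_2820 the omental minus femoral difference was -4.01 ± 0.24 (2.98e-08), and without that of restricted_9075 it was -3.72 ± 0.34 (2.94e-06). The size of the fall followed the treatment of background: over all alternatives, the brighter probe's difference ran from -4.05 to -2.62 against abdominal and from -4.37 to -2.90 against femoral cells. The smaller values came with a larger offset added before the log2 step. The test was passed under each of the 20 and 19 alternatives that kept the probe.

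Markers of other cell types were read in the same samples. Summed signals of the 8 mesothelial markers were 341 to 1110 in omental, 95.6 to 391 in abdominal and 60.0 to 161 in femoral cells, with 1 to 5 markers detected on an array and MSLN, KRT8 and KRT18 on none. Of the 8 endothelial markers, 1 to 7 were detected and CDH5 on no array, with sums of 83.0 to 188, 149 to 349 and 202 to 339. Of the 6 pericyte markers, 3 to 5 were detected and RGS5 on no array, with sums of 297 to 521, 332 to 819 and 537 to 863. The sums of these lists moved with depot as LAMA2 did, or opposite to it. Their omental sums overlapped the abdominal but not the femoral ones. A sum adds unlike probes, so few bright markers can carry it, and single markers were not compared between depots. Summed progenitor and fibroblast markers were 58300 to 76900, 67700 to 82600 and 63900 to 85300, with all depots overlapping. In control fetuses alone, omental sums (58300 to 76900) lay below femoral ones (82400 to 85300), and in restricted fetuses these overlapped. The part of any of these lists in the result was not tested. Among the cell types that make merosin in tissue, the skeletal muscle markers MYOD1 and CKM and the Schwann cell markers S100B and NGFR were detected on no array. Summed skeletal muscle markers (1 to 4 of 6 detected) were 69.4 to 85.4 in omental, 64.2 to 178 in abdominal and 64.9 to 86.5 in femoral cells. Summed Schwann and neural markers (1 to 2 of 4 on the array detected) were 62.9 to 81.1, 62.8 to 72.6 and 69.6 to 142. All 5 smooth muscle markers were detected on every array, with sums of 50000 to 58800 in omental, 44300 to 57000 in abdominal and 48000 to 57100 in femoral cells, so the depots overlapped.

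Of the 9 tested laminin and nidogen probes, 2 were lower and 0 higher in omental than in abdominal cells, both of them LAMA2. Of all 16933 tested probes, 4.62% were called in this comparison, 2.49% higher and 2.13% lower. The median difference of the 9 probes was -0.05, against 0.00 for all tested probes. Against femoral cells, 3 probes were lower and 0 higher, the LAMA2 probes and LAMB2, with 10.9% of all probes called, 5.33% higher and 5.6% lower. The median of the 9 was -0.17. Values did not overlap between depots for 2 of the 9 probes against abdominal cells (0.738% of all probes) and for 3 against femoral cells (2.4%).

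**Figure D2:**
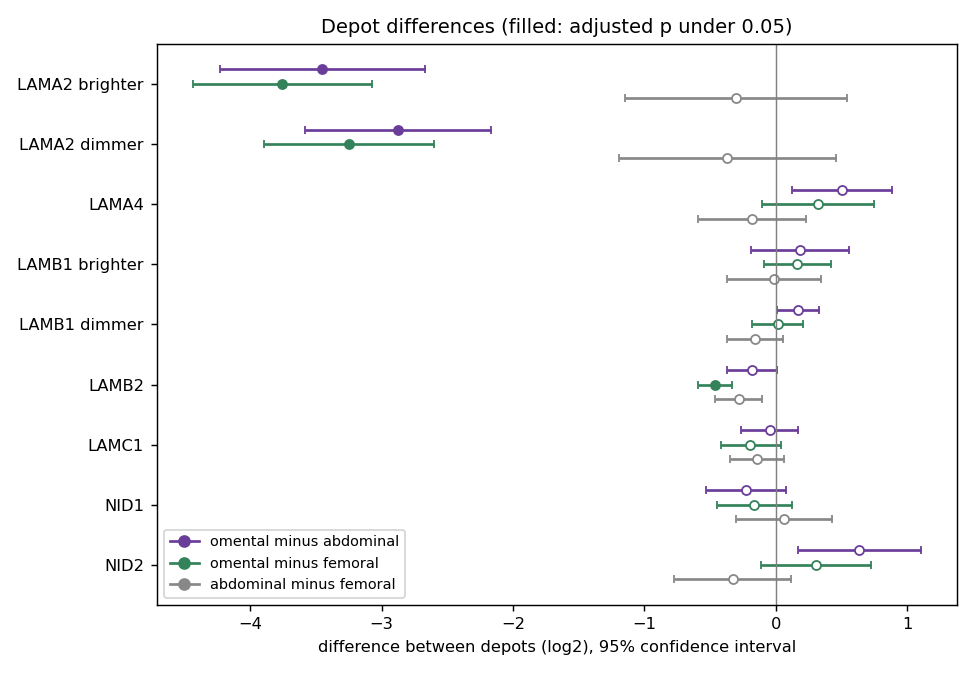
Log2 differences between depots (horizontal axis) with 95% confidence intervals for the 9 tested probes, filled where the adjusted p was under 0.05. The LAMA2 probes lie near -3 to -4 against both subcutaneous depots, LAMB2 is filled against femoral cells, and no abdominal minus femoral value is filled.

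Among the beta chains, LAMB2 was lower in omental than in femoral cells, and LAMB1 was not called in any comparison. LAMB2 encodes the beta 2 chain of muscle, nerve and kidney basement membranes. It read 5.14, 5.37 and 5.54 (lowest, median and highest of 8) in omental cells, 5.15, 5.49 and 5.89 in abdominal cells, and 5.64, 5.83 and 5.93 in femoral cells. The omental and femoral ranges did not overlap, and the abdominal range covered nearly the whole span of both. The omental minus femoral difference was -0.46 ± 0.06 (1.38-fold less, adjusted p 1.06e-04, limma) and was negative in 8 of 8 fetuses. Without the femoral array of restricted_9075 it was -0.46 ± 0.07 (2.89e-04). Against abdominal cells it was -0.18 ± 0.09 (adjusted p 0.328) and negative in 6 of 8. The lowest abdominal LAMB2 level, 5.15, was again that of fetus restricted_9073, and without that array the difference was -0.23 ± 0.08 (adjusted p 0.121). LAMB2 signals were dim, with deposited medians of 25.8, 31.1 and 42.5 in omental, abdominal and femoral cells, so the fold is a compressed one. With the deposited, background-subtracted signals floored at 16 in place of the background model, the omental minus femoral difference was -0.73. With the larger offset it was -0.27.

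LAMB1 encodes the beta 1 chain, found in most embryonic laminins. Its brighter probe averaged 8.03 ± 0.29 in omental, 7.85 ± 0.47 in abdominal and 7.86 ± 0.19 in femoral cells (SD, n = 8 each). Its dimmer probe averaged 5.36 ± 0.12, 5.19 ± 0.16 and 5.35 ± 0.23. No LAMB1 difference between depots exceeded 0.18 in size, and the adjusted p of all 6 ran from 0.248 to 1. The widest of the 95% intervals, for the brighter probe between omental and abdominal cells, ran from -0.19 to 0.56.

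LAMC1, the gamma 1 chain that most laminins contain, was not called in any depot comparison. It averaged 13.57 ± 0.21 in omental, 13.62 ± 0.19 in abdominal and 13.77 ± 0.23 in femoral cells (SD, n = 8 each), and its 24 levels spanned 0.78. Its differences were -0.05 ± 0.10 for omental minus abdominal cells (adjusted p 0.886) and -0.19 ± 0.11 for omental minus femoral cells (0.332). Intervals of -0.26 to 0.17 and -0.42 to 0.04 bound what these arrays allow.

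LAMA4 and NID2 had higher means in omental cells, in differences that did not pass across fetuses and passed against abdominal cells when each fetus was its own control. LAMA4 read 10.39, 10.70 and 11.55 (lowest, median and highest of 8) in omental, 9.58, 10.35 and 11.00 in abdominal and 9.97, 10.44 and 11.26 in femoral cells, with all depots overlapping. Its omental level was above the abdominal one in 8 of 8 fetuses, by 0.50 ± 0.18 without the fetus in the fit (adjusted p 0.142, limma) and by 0.50 ± 0.12 with it (0.0225). Against femoral cells it was higher in 7 of 8, by 0.32 ± 0.20 (0.401) and, with the fetus in the fit, by 0.32 ± 0.09 (0.0289), a call not made with the fetus as a random block over all 24 arrays (0.179).

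NID2, which encodes nidogen 2, read 7.03, 7.81 and 8.34 in omental, 6.42, 7.11 and 8.09 in abdominal and 7.09, 7.41 and 8.22 in femoral cells. It was higher in omental than abdominal cells in 7 of 8 fetuses, by 0.64 ± 0.22 (adjusted p 0.129, limma) and with the fetus in the fit by 0.64 ± 0.17 (0.0432). The highest abdominal level, 8.09, belonged to the array of fetus restricted_9073 whose NKX3-2 level lay near the omental ones. Without that array the difference was 0.78 ± 0.19 (adjusted p 0.0239), and without the whole fetus 0.71 ± 0.19 (0.0468). Against femoral cells NID2 differed by 0.31 ± 0.20 (0.422), and the fetus in the fit did not change that call (0.139).

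With the fetus in the fit, 4 of the 9 probes were called against abdominal cells, where 9.62% of all probes were, and 4 against femoral cells, where 15.6% were. NID1, which encodes nidogen 1, averaged 8.17 ± 0.23 in omental, 8.40 ± 0.41 in abdominal and 8.34 ± 0.33 in femoral cells (SD, n = 8 each). It was not called in either fit: omental cells differed by -0.23 ± 0.15 from abdominal (adjusted p 0.478) and by -0.17 ± 0.14 from femoral cells (0.553).

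**Figure D3:**
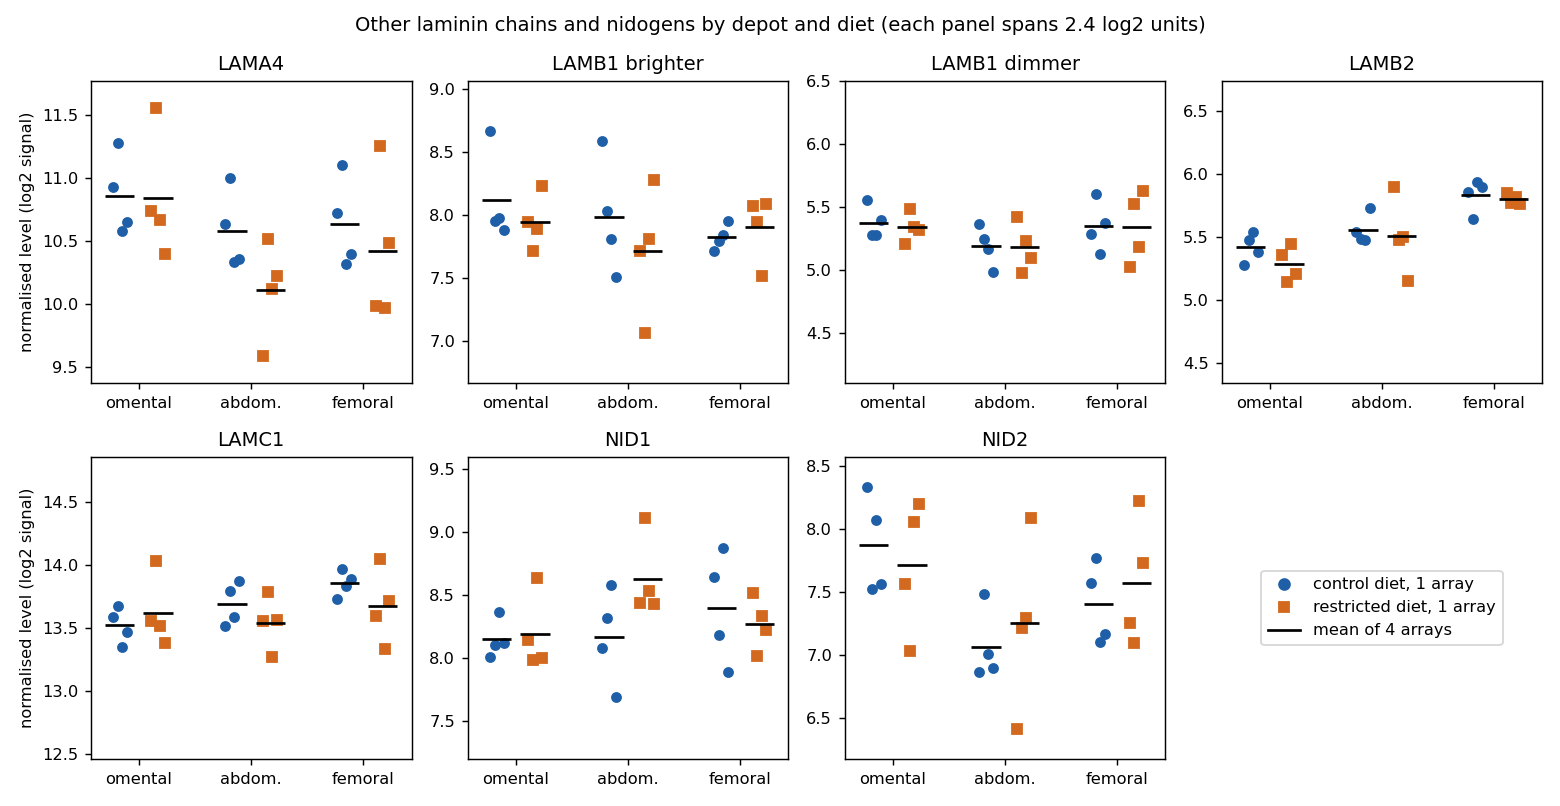
Log2 levels of LAMA4, LAMB1 (both probes), LAMB2, LAMC1, NID1 and NID2 by depot, with 1 point per array, circles for control and squares for restricted fetuses, and bars at the mean of 4 arrays. Every panel spans the same range of log2 units; LAMB2 separates omental from femoral arrays, and the other 6 panels overlap in all depots.

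Between the subcutaneous depots, limma called 0 of the 9 probes, with 0.0768% of all tested probes called (13 of 16933). Differences of abdominal minus femoral cells ran from -0.37 for the dimmer LAMA2 probe to 0.06 for NID1. One member, LAMB2, had an unadjusted p under 0.05, at -0.28 ± 0.09 (p 0.00418, adjusted p 0.738, limma), lower in abdominal cells in 7 of 8 fetuses. LAMC1 was lower in abdominal cells in 8 of 8 fetuses, by -0.15 ± 0.10 (adjusted p 1) and with the fetus in the fit by -0.15 ± 0.05 (0.477), and was not called. For the brighter LAMA2 probe the 95% interval was -1.15 to 0.54. Its difference was 1.78 in fetus restricted_2820 and -1.96 in restricted_9073.

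The members differed in how much of their spread over the 24 arrays lay between depots. Depot accounted for 84.5% and 81.3% of the sum of squares of the brighter and dimmer LAMA2 probes, 62.7% of that of LAMB2, 27.6% for NID2 and 21.3% for LAMA4. The median tested probe had 9.12% between depots and 41.7% between fetuses. LAMC1 (14.6% depot, 61.1% fetus), LAMA4 (64.0% fetus) and NID2 (42.1% fetus) had a larger fetus than depot share of that sum. So did NID1 (8.85% depot, 39.2% fetus) and the brighter LAMB1 probe (6.35% depot, 49.2% fetus). With 8 fetuses and 3 depots, noise alone gives a larger fetus share, so these shares do not rank fetus above depot. The SD of the brighter LAMA2 probe over the 24 arrays was 1.89, against 0.18 for the median tested probe.

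The 5 genes whose levels were most like the brighter LAMA2 probe over the 24 arrays were ABI3BP, MME, DPT, ANPEP and HOXC6, with Pearson r of 0.938, 0.932, 0.927, 0.916 and 0.911. Spearman rho was 0.882, 0.864, 0.895, 0.821 and 0.727 in the same order. These values describe arrays that fall into omental and subcutaneous clusters and share fetuses, so they carry no test. Over the 16 subcutaneous arrays alone r was 0.761, 0.638, 0.838, 0.634 and 0.355. DPT encodes dermatopontin, a matrix protein of skin, and MME and ANPEP encode cell surface peptidases. Omental, abdominal and femoral medians of ABI3BP, a matrix-associated protein gene, were 8.06, 10.70 and 11.16.

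Maternal restriction changed no laminin or nidogen probe detectably. In omental, abdominal and femoral cells, 0 of the 9 probes passed in limma, as did 0% of all tested probes in each depot. At an unadjusted p under 0.05, 0 of the 9 passed in any depot, beside 804, 824 and 1050 of all 16933 probes. Restricted minus control differences ran from -0.18 to 0.18 in omental cells, from -0.47 to 0.46 in abdominal cells and from -0.49 to 0.17 in femoral cells. The -0.49 in femoral cells was that of the dimmer LAMA2 probe, and it was 0.05 without the array of fetus restricted_2820.

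LAMA2 on the brighter probe averaged 5.19 in control and 5.23 in restricted omental cells, a difference of 0.04 ± 0.38 (adjusted p 1, limma). In abdominal cells the difference was 0.16 ± 0.59 (0.984) and in femoral cells -0.23 ± 0.47 (0.957), where it was 0.30 without the array of fetus restricted_2820. The 95% intervals of -0.82 to 0.90, -1.16 to 1.49 and -1.28 to 0.83 leave room for changes of over 1 log2 unit in the subcutaneous depots.

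The largest diet differences among the other members were in abdominal cells. LAMA4 read 10.63, 11.00, 10.33 and 10.36 in fetuses control_9017, control_9087, control_8011 and control_8009, and 9.58, 10.51, 10.12 and 10.22 in restricted_9085, restricted_2820, restricted_9075 and restricted_9073. The restricted minus control difference was -0.47 ± 0.22 (p 0.0588, adjusted p 0.955, limma), with fetus restricted_2820 inside the control range. Without fetus restricted_9085 it was -0.295. NID1 read 8.08, 8.32, 8.58 and 7.69 in the controls and 8.43, 9.11, 8.53 and 8.43 in the restricted fetuses. The difference was 0.46 ± 0.22 (p 0.0654, adjusted p 0.955), and again the groups overlapped. Without fetus restricted_2820 it was 0.297, and without control_8009 0.298.

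**Figure D4:**
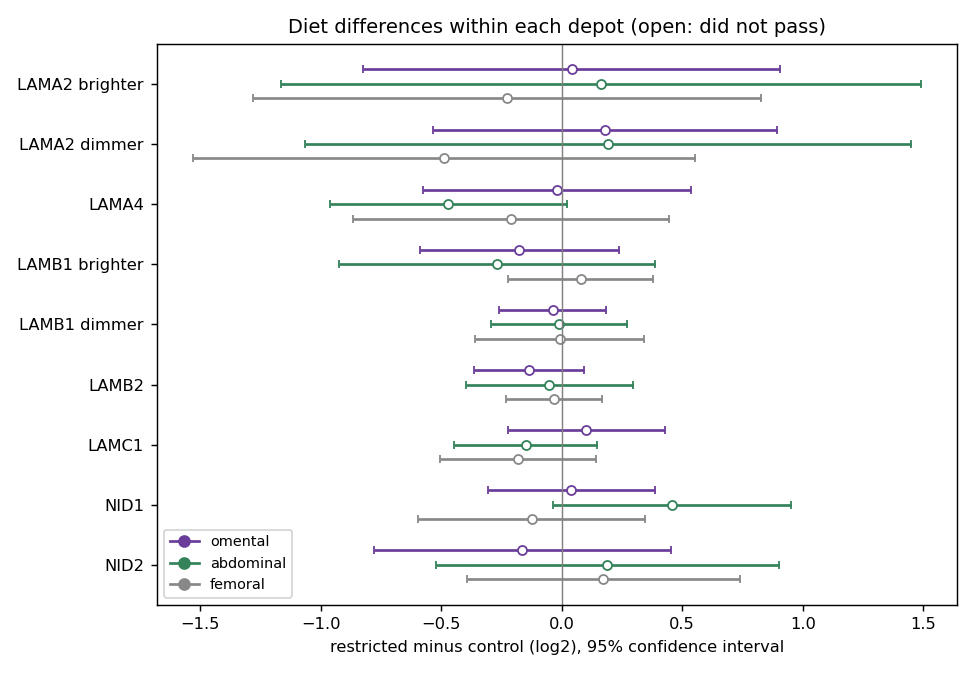
Restricted minus control log2 differences (horizontal axis) with 95% confidence intervals for the 9 tested probes in omental, abdominal and femoral cells. All markers are open, since no adjusted p was under 0.05, and every interval includes 0.

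When the depots of a fetus were averaged, limma called 0 of 9 probes, with 0.00591% of all probes called (1 of 16933). Differences ran from -0.23 ± 0.24 for LAMA4 to 0.12 ± 0.14 for NID1. Leaving out single fetuses or arrays moved that of LAMA4 between -0.451 (without restricted_2820) and -0.088 (without control_9087), and that of NID1 between 0.011 (without control_8009) and 0.248 (without control_8011). Depot by diet interactions were called for 0 of 9 probes in each of the 3 depot pairs, as for 0% of all probes, and at an unadjusted p under 0.05 for 0 of 9 beside 330, 392 and 322 of all. In none of the diet comparisons were the groups of a member free of overlap, beside 2.82%, 3.14%, 3.89% and 3.59% of all probes in omental, abdominal and femoral cells and on the means.

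Among genes that work with laminins, COL4A1 and COL4A2, both of type IV collagen, had their highest mean levels in omental cells, where that of LAMA2 was lowest. Of 22 basement membrane partners on the array, 14 were tested: 3 were higher and 2 lower in omental than in abdominal cells (median of the 14, 0.10), and 4 were higher and 3 lower than in femoral cells (median 0.18). Of all tested probes, 4.62% and 10.9% were called in these comparisons. With the fetus in the fit, 6 and 11 of the 14 were called, beside 9.62% and 15.6% of all probes. The list was chosen with earlier results of these data known, so these counts do not test it as a set. The genes called lower include NTN4, which entered the tests only through subcutaneous arrays. COL4A1 and COL4A2 encode the chains of the most common type IV collagen. COL4A1 read 14.25 to 14.54 in omental, 13.28 to 14.13 in abdominal and 12.97 to 13.98 in femoral cells. The omental range lay above both subcutaneous ranges, which overlapped each other, and COL4A1 was higher in omental cells by 0.75 ± 0.12 and 0.91 ± 0.12 (adjusted p 0.00164 and 6.38e-05, limma). COL4A2 was higher by 1.10 ± 0.18 and 1.21 ± 0.18 (0.00222 and 2.98e-04), and both genes were higher in 8 of 8 fetuses. In the 6 female fetuses alone, COL4A2 against abdominal cells did not pass (0.0582). COL18A1, outside the 4 genes named by adjusted p, had the largest difference of the 14 in both comparisons. It was higher in omental cells by 1.83 ± 0.44 against abdominal and 1.69 ± 0.35 against femoral cells (adjusted p 0.025 and 0.00395, limma), and its omental and subcutaneous ranges overlapped. COL4A5 was not called against either depot (-0.08 and -0.02, adjusted p 0.842 and 0.968), and COL4A3, COL4A4 and COL4A6 were not tested.

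FBLN1, which encodes the laminin- and nidogen-binding fibulin 1, was lower in omental than in femoral cells by -0.95 ± 0.18 (adjusted p 0.00196, limma). Against abdominal cells it was at -0.72 ± 0.20 (0.0471), a call that ended without any one of fetuses control_9017, control_9087, control_8011, restricted_9075, control_8009 or restricted_9073 (0.0543 to 0.131), and also in females alone and with other scaling, offset, background or filter (0.0572 to 0.139). NTN4 encodes a netrin that binds laminin gamma chains. It was detected on no omental array and entered the tests only through subcutaneous arrays. Omental cells read at least 1.28-fold less than abdominal cells (adjusted p 0.00382, limma) and at least 1.45-fold less than femoral cells (0.00112). Such a filter favours a lower omental reading, so the direction of these calls is not a test. Both calls ended with the floor in place of the background model (0.336 and 0.0851) and with the deposited matrix values (0.278 and 0.0874).

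Of 10 laminin receptor genes, 6 could be tested, and 2 had no probe with a single symbol in the annotation used here. Of the 6, 1 was higher and 0 lower in omental than in abdominal cells. Against femoral cells 1 was higher and 1 lower (3 called with the fetus in the fit). Of all probes, 4.62% and 10.9% were called (15.6% against femoral cells with the fetus in the fit). The medians of the 6 were 0.12 and 0.21. ITGA2 was higher in omental than in femoral cells by 0.76 ± 0.12 (adjusted p 4.76e-04, limma) in 8 of 8 fetuses, and ITGA1 was lower by -0.66 ± 0.17 (0.0157). The ITGA1 call ended without fetus control_9087 (0.0576) and with no probe filter (0.0529). It also ended with the floor in place of the background model (0.09) and with the deposited matrix values (0.0878). Both genes encode alpha subunits of integrins that bind collagen and laminin. ITGA7, the alpha subunit of the main laminin receptor of muscle, was higher in omental than in abdominal cells by 0.50 ± 0.13 (0.0405). That call ended without any one of fetuses control_9017, restricted_9085, control_9087, control_8011, restricted_9075 or control_8009 (0.0568 to 0.118), and also in females alone and with other scaling, offset, background or filter (0.0659 to 0.263).

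LAMA2 also binds dystroglycan, which the dystrophin complex links to the cell skeleton. Of 12 genes of that complex, 7 were tested, with 0 called against abdominal cells (3 with the fetus in the fit) and 2 against femoral cells, beside 4.62% (9.62%) and 10.9% of all probes. SGCE, a sarcoglycan gene, was lower in omental than in femoral cells by -0.57 ± 0.11 (adjusted p 0.00196, limma). SSPN, which encodes sarcospan, was higher by 0.44 ± 0.11 (0.0112), a call that ended without fetus control_8011 (0.0518) and in females alone (0.142). With the fetus in the fit, both also passed against abdominal cells (0.0206 and 0.0451). Of the genes that glycosylate dystroglycan for laminin binding, 6 were tested and 0 were called. The laminin chain genes LAMA1, LAMB4 and LAMC3 were on the array and none was tested. No gene of these lists was called in any diet comparison or between the subcutaneous depots. Hardly any probe was: 0% of all tested probes for diet in each depot, 0.00591% on the fetus means and 0.0768% between the subcutaneous depots.

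**Figure D5:**
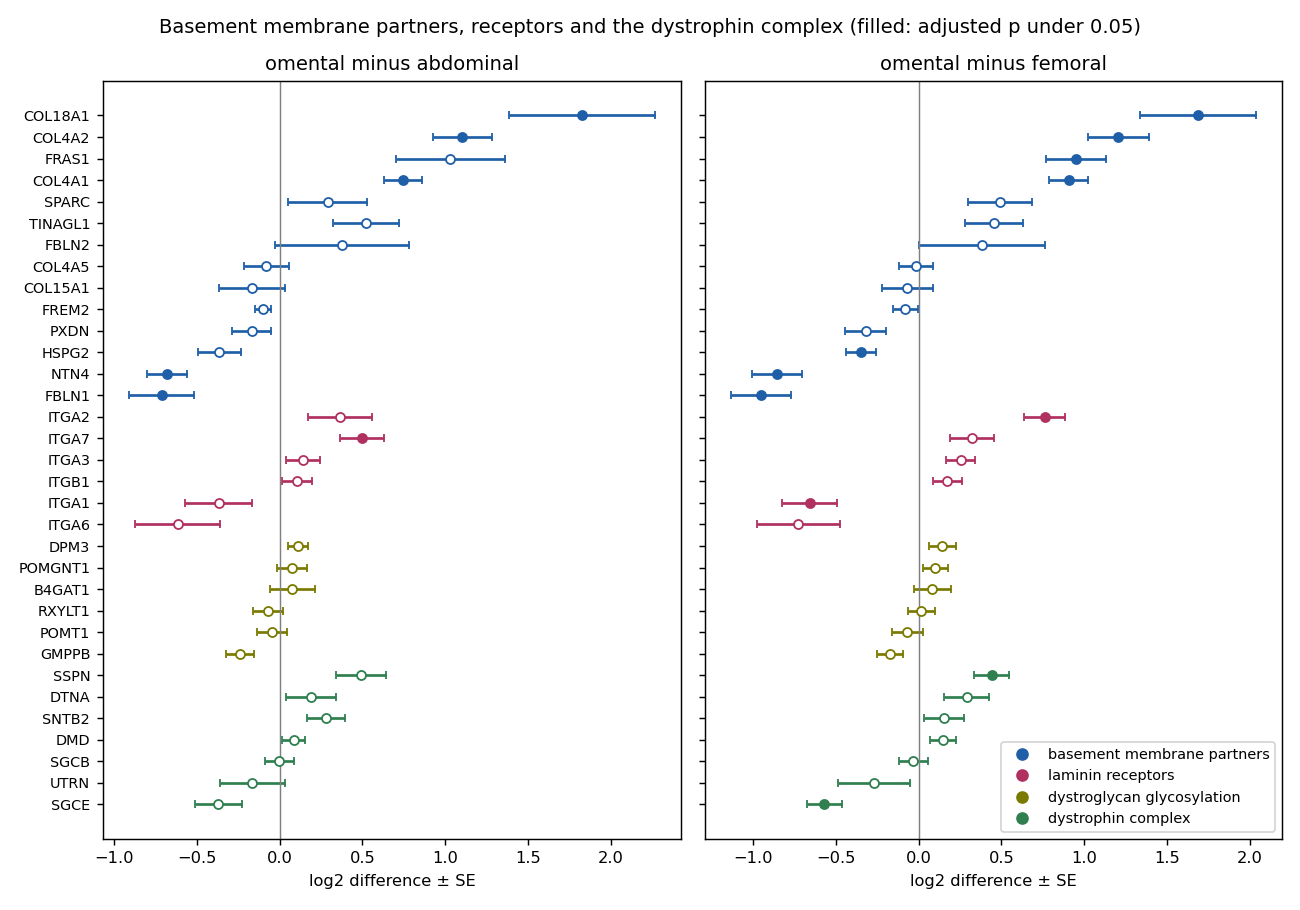
Log2 differences ± SE of omental minus abdominal (left) and omental minus femoral (right) cells for the 33 tested genes of the partner, receptor, glycosylation and dystrophin complex lists, filled where the adjusted p was under 0.05. COL4A1, COL4A2 and COL18A1 lie to the right in both panels and FBLN1 and NTN4 to the left.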

How the data were processed

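Illumina bead arrays were read for 24 samples, 3 depots of 8 fetuses. Per the file headers, the authors deposited an average intensity per probe and array, each with a detection p-value. From the values, these intensities had been background-subtracted and not normalised between arrays. The authors' second deposited table held intensities on a linear scale that, from the values, were quantile-normalised. The sources used here do not give the scanner software or its settings. The depot letter and fetus number of a column name gave its sample, and rank order against the second table bore this out for all 24.

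Background was modelled and levels were quantile-normalised as log2 values by neqc in limma 3.58.1 with an offset of 16 (R 4.3.3, statmod 1.5.0). Tables and plots used Python 3.11.15, numpy 2.4.6, pandas 2.3.3 and matplotlib 3.10.9. Probes entered the tests when detected at p under 0.05 on 4 or more arrays (16933 of 48803). Gene names came from GEO's platform annotation, which can be old. For 28098 probes it gave 1 symbol. Tests were two-sided, from lmFit and eBayes of limma, Benjamini-Hochberg adjusted over all tested probes, with a call at an adjusted p under 0.05. Depot pairs were fitted on 16 arrays with diet in the model, diet on the 8 arrays of a depot and on fetus means, and interactions on the depot pairs. The test was checked on simulated data with known changes, larger than the differences of members other than LAMA2. The simulated noise had no part shared by the arrays of a fetus, so that check does not bear on the pairing.

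The fetus as a block was an alternative. Arrays with the same number come from the same animal, and their deviations from group means correlated at 0.28 to 0.67 in every pair. Each array reads 1 culture, so the spread between arrays includes culture and array error. Where no array of a group detected a probe, the fold is a bound, taken on each array against the lowest detected signal or the probe's own value, whichever was higher. Pathway lists used 1 probe per gene, the brightest, and named up to 4 genes in order of adjusted p. The likest genes were the 5 with the highest Pearson r to the member probe with the smallest p over depots. Members, lists and tests were chosen with earlier results of these data known. Other settings covered normalisation, offset, background, deposited matrix, probe filter, sex, and each fetus left out. For background, the deposited signals were used without the model, values under 16 were set to 16, and the result was quantile-normalised. Values of the deposited matrix were floored in the same way.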

Additional observations from a re-analysis of the deposited data

Results flagged for a closer look

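Single arrays stood far from the other 3 of their group in 3 of the 54 sets of 4 arrays screened for the 9 tested probes, and chance alone flags about 1 in 20. The dimmer LAMA2 probe read 5.32 in omental cells of fetus control_8009, against 4.90 to 4.95 in the other controls. The brighter LAMB1 probe read 8.66 in omental cells of fetus control_9017, against 7.88 to 7.97. NID1 read 9.11 in abdominal cells of fetus restricted_2820, against 8.43 to 8.53. No diet difference of a member was found to differ between depots.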

How the results depend on the processing

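The count of 2 laminin and nidogen probes called between omental and abdominal cells was 2 or 3 when a fetus or a single array was left out. It became 4 with the fetus as a replicate block, 4 with the fetus as a random block over all 24 arrays and 4 with the block and without the abdominal array of fetus restricted_9073. It became 0 where only probes detected on all arrays were kept, since that filter removes both LAMA2 probes. The same filter took the omental minus femoral count from 3 to 1, and leaving out a fetus kept it at 3. Over all probes, the omental minus abdominal count of 782 ran from 346 (without control_8009) to 1121 (without the abdominal array of restricted_9073) when a fetus or array was left out. It was 1629 with the block, 1726 with the random block and 1636 with the block and without that array. It was 497 with the floor in place of the background model, 498 with the deposited matrix, 394 with no probe filter and 228 in the 6 female fetuses. In those females the omental minus femoral count of 1852 was 1059. The abdominal minus femoral count of 13 was 30 with the block, 44 with the random block, 20 with the block and without that array, 2 with probes detected on all arrays, and 8 in females and without control_8011 or restricted_9073. Diet counts within a depot and interaction counts, 0 over all probes, were at most 5, and the count of 1 on the means ran from 0 to 22, the last with the random block. The block changed no other member call than those printed above. Among laminin and nidogen probes, all diet, interaction and abdominal minus femoral counts stayed at 0 under every alternative run.

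Signs turned in many differences, none of them called, and those given here are examples. For diet on the depot means, they turned in 9 of 20 alternatives for the brighter LAMA2 probe and in 6 of 20 for the dimmer one. For LAMA4 in omental cells the diet sign turned in 6 of 17, and signs of interactions turned as well. The dimmer LAMB1 probe, omental minus femoral, was -0.002 with median scaling, -0.057 in females alone and -0.022 to 0.062 without single fetuses or arrays. Without single fetuses or arrays, abdominal minus femoral cells ran from -0.144 to 0.106 for the brighter LAMB1 probe and from -0.085 to 0.158 for NID1, and omental minus abdominal from -0.090 to 0.003 for LAMC1. The LAMA2 diet difference ran from -0.380 to 0.318 in omental, -0.296 to 0.693 in abdominal and -0.564 to 0.303 in femoral cells (brighter probe), and on the dimmer probe from -0.808 to 0.053 in femoral cells. The brighter probe's difference in females alone was -0.365 and -0.200 in omental and abdominal cells. The cause of these turns was not tested. Dim probes (omental LAMA2, LAMB2, the dimmer LAMB1) carry little signal over background, which limits their folds. Alternatives added after seeing the data were leaving out the abdominal array of control_8009, leaving out the femoral array of restricted_2820 or of restricted_9075, and the block without the abdominal array of restricted_9073.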
